A study of Americamysis bahia with 35 samples.

Results

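The highest tested concentrations of 2 leachates were compared directly, weathered tire-wear particle leachate at 2.68 g/L against unweathered leachate at 1.08 g/L. The libraries were chosen by their titles, 5 for each leachate, which makes 10 of the 35 libraries of the study. The organism was Americamysis bahia, a mysid crustacean. Whole juveniles labelled as 5 days old were held in the leachates for 96 h, and poly(A)-selected RNA of the whole body was sequenced. The other 25 libraries were 5 seawater controls at 0 g/L, 5 each for unweathered leachate at 0.27 and 0.54 g/L, and 5 each for weathered leachate at 0.67 and 1.34 g/L. All groups, controls included, were in filtered seawater of 25 ppt and received Artemia nauplii as food, per the labels. How the particles were weathered is not stated in the labels. Nor do the labels state what separates the libraries of a group (animals, pools of animals, or tanks). The p-values therefore measure the spread between samples alone, and some of it may be technical.

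Tire-wear particles are rubber fragments that tires shed on roads. Water in contact with them takes up metals such as zinc and organic rubber additives, among them antioxidants and vulcanisation agents. Exposure to light, air and water can remove or transform such additives before a leachate is made. Mysids are small omnivorous crustaceans of coastal and estuarine water, and Americamysis bahia is a standard species in toxicity tests. Each leachate was tested in 3 dilution steps. The weathered concentration was 2.48 times the unweathered one at the highest, the middle and the lowest step alike. The type of leachate and its concentration in g/L therefore cannot be told apart in any of these comparisons. Because whole animals were sequenced, fewer cells of a type and less RNA per cell cannot be told apart either.

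The measurements were kallisto estimated counts of 34903 assembled transcripts, which the Trinity identifiers group into 22900 Trinity genes. Gene names are not paired with these identifiers in the files used here, so transcripts are given by identifier and no role is assigned to them. Of the 34903 transcripts, 27420 passed the filter on low counts and were tested, as were 17990 Trinity genes after summing the counts of their transcripts. Total counts of the 10 libraries lay between 21275216 and 27765062. Levels of single transcripts are given in CPM, read counts put on a common scale of library size, computed here with TMM factors.

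Measures of whole libraries did not separate the leachate groups by the test. Between 29421 and 31021 transcripts had a count in the weathered libraries and between 29323 and 30684 in the unweathered ones (exact permutation test, p = 0.238). Total counts (p = 0.619) and TMM factors (p = 0.889) did not pass the exact permutation test either. Nor did the share of counts taken by the 100 most abundant transcripts (exact permutation p = 0.294). With 5 against 5 this test can give no p below 0.00794. The first 3 principal components of log2 CPM held 19.3%, 14.7% and 11.1% of the variance (exact permutation p = 0.159, 0.381 and 0.762). Adjusted over these 7 measures, the p-values of the exact test lay between 0.667 and 0.889. The weathered libraries fell apart along the second component, where replicates 1 and 2 were at 66.3 and 67.3 and replicates 3, 4 and 5 at -70.8, -58.5 and -80.0. The 5 unweathered libraries lay between them, from -1.40 to 29.8. The median correlation of log2 CPM was 0.899 among the weathered libraries, 0.913 among the unweathered libraries and 0.903 between the groups.

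The direct comparison asked which transcripts differed in level between the 2 leachates at their highest concentrations. None of the 27420 transcripts passed the test (percent called 0, edgeR quasi-likelihood test, smallest adjusted p = 0.243). At an unadjusted p under 0.05 there were 1854 transcripts, or 6.76% of those tested, of which 919 (3.35%) were on the higher and 935 (3.41%) on the lower side in weathered leachate. The median log2 difference over all transcripts was 0.02. All 5 weathered libraries lay above all 5 unweathered ones for 159 transcripts (0.58%) and below them for 260 (0.948%). After summing to Trinity genes the count was again 0 of 17990 (smallest adjusted p = 0.111), with 1662 (9.24%) at an unadjusted p under 0.05.

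Other tools gave few calls. On transcripts limma-voom called 0, edgeR with the compared groups alone called 1, and DESeq2 called 32, of which 18 were higher and 14 lower in weathered leachate. Of these 32, 16 had a count of 0 in 4 or 5 libraries of a group. Averaged on the log2 scale, 13 of the 32 were at 2 CPM or more. For Trinity genes DESeq2 called 22, of which 6 were higher and 16 lower. Leaving out 1 library at a time, edgeR called between 0 and 2 transcripts. It called 2 without unweathered replicate 1, and 1 each without unweathered replicates 3 and 4.

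How precisely a difference was measured depended on abundance. The 95% interval of a single transcript's difference, not adjusted for the 27420 tests, had a median half-width of 1.6-fold. A difference larger than that need not have been called after adjustment. Counts were also simulated in 4 sets with 200 changed transcripts each. At the highest step edgeR found 13.5% of the 1.5-fold, 30.8% of the 2-fold and 57.3% of the 4-fold changes. By abundance quartile, from the scarcest to the most abundant, the median half-widths were 3, 1.73, 1.37 and 1.23-fold. The whole interval lay within 2-fold in either direction for 14520 transcripts, or 53% of the 27415 with an interval. That share was 7.93% in the scarcest quartile and 85.9% in the most abundant one. Averaged on the log2 scale, 15912 transcripts were at 2 CPM or more. Of these, 227 had a fitted difference of at least 2-fold and 13 of at least 4-fold. Such an average can leave out transcripts near 0 in a group. Among all tested transcripts the numbers were 2228 and 531, many of them imprecise. The share at an unadjusted p under 0.05 was 5.58% in the scarcest quartile and 9.89% in the most abundant one.

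**Figure D1:**
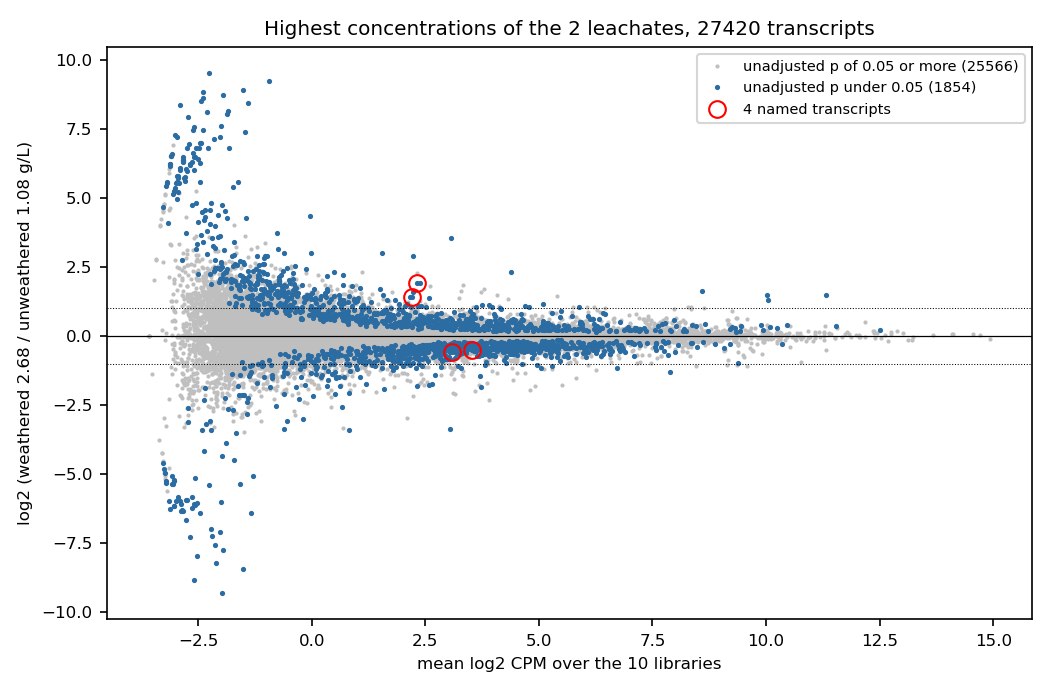
Difference between the highest concentrations by abundance. Each of the 27420 points is 1 transcript, with its mean log2 CPM over the 10 libraries on the x axis and its log2 difference, weathered 2.68 g/L over unweathered 1.08 g/L, on the y axis. Blue points are the 1854 with an unadjusted p under 0.05, red circles the 4 named transcripts and dotted lines 2-fold differences. Differences past 4-fold stand mostly at the low-abundance end, where fitted values are imprecise.

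The 4 transcripts named for this comparison had the smallest unadjusted p in each direction among those with a mean log2 CPM of at least 1. In the direct comparison none of them was called by edgeR, while DESeq2 called all 4. Their calls over several dilution steps are given further below. The smallest p on the higher side was that of TRINITY_DN3549_c0_g1_i1, of 1557 bases, the only transcript of its Trinity gene. Its level was 8.92, 18.3, 2.47, 16.6 and 7.44 CPM in weathered replicates 1 to 5 and 2.69, 1.89, 2.14, 3.61 and 3.72 CPM in the unweathered ones. Weathered replicate 3 lay within the unweathered range and the other 4 weathered libraries above it. The log2 difference was 1.93 (SE 0.41, edgeR adjusted p = 0.415, 95% interval 1.09 to 2.77). The control mean of 5.71 CPM (SD 2.26, n = 5) lay between the 2 leachate means of 2.81 CPM (SD 0.836, n = 5, unweathered) and 10.7 CPM (SD 6.58, n = 5, weathered). Neither leachate group passed the test against the control (edgeR adjusted p = 0.295 for unweathered and 0.543 for weathered).

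TRINITY_DN4486_c0_g1_i13, of 638 bases, was next on the higher side. Its level was 4.46, 7.74, 5.83, 12.1 and 9.22 CPM in the weathered libraries and 2.58, 3.39, 3.96, 3.39 and 1.39 CPM in the unweathered ones. All weathered libraries were above all unweathered ones. The log2 difference was 1.42 (SE 0.33, edgeR adjusted p = 0.510). It is 1 of 3 transcripts of its Trinity gene and made up 6.47% of that gene's level in the weathered and 2.96% in the unweathered group. edgeR's test of unequal differences among these transcripts made no call for that Trinity gene (adjusted p = 0.95). The whole Trinity gene of TRINITY_DN4486_c0_g1_i13 differed much less, at 122 CPM (SD 5.90, n = 5) in weathered and 99.3 CPM (SD 6.59, n = 5) in unweathered leachate, a log2 difference of 0.29 (SE 0.10, edgeR adjusted p = 0.392 over Trinity genes). kallisto divides reads among similar transcripts, so the level of a minor isoform depends on that division.

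On the lower side, TRINITY_DN7880_c0_g1_i4, of 6222 bases, had the smallest p. Its level was 8.84, 10.4, 11.4, 8.71 and 8.84 CPM in the weathered libraries and 12.1, 12.0, 15.2, 15.3 and 13.3 CPM in the unweathered ones. The groups did not overlap. The log2 difference was -0.49 (SE 0.11, edgeR adjusted p = 0.415, 95% interval -0.71 to -0.28). The control libraries, from 9.35 to 11.7 CPM, lay within or near the weathered range, and neither leachate differed from them by the test (edgeR adjusted p = 0.124 for unweathered and 0.824 for weathered). TRINITY_DN7880_c0_g1_i4 carried 74.4% of the level of its Trinity gene in weathered and 84.5% in unweathered leachate. edgeR's test of unequal differences among the transcripts of that Trinity gene made no call (adjusted p = 0.857). As a sum the Trinity gene had a log2 difference of -0.31 (SE 0.09, edgeR adjusted p = 0.351 over Trinity genes).

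TRINITY_DN5160_c2_g1_i1, of 3739 bases and the only transcript of its Trinity gene, was at 6.11, 8.19, 8.34, 5.26 and 7.01 CPM in the weathered libraries. It was at 10, 11.9, 10.7, 9.29 and 10.1 CPM in the unweathered ones, all of which were above every weathered library. The log2 difference was -0.58 (SE 0.13, edgeR adjusted p = 0.510). Unweathered leachate at 1.08 g/L had raised this transcript above the control mean of 6.55 CPM (SD 0.715, n = 5), with a log2 rise of 0.67 (SE 0.13, edgeR adjusted p = 0.00366), whereas the change with weathered leachate was 0.09 (SE 0.13, edgeR adjusted p = 0.951). The direct difference between the leachates, given above, did not pass the test for TRINITY_DN5160_c2_g1_i1. The authors' deposited table comes from the same study and is no separate evidence. It gives TRINITY_DN5160_c2_g1_i1 a log2 fold change of 0.64 for unweathered leachate at 1.08 g/L (authors' adjusted p = 0.00132). For weathered leachate at 2.68 g/L it gives 0.08 (authors' adjusted p = 0.875). For TRINITY_DN3549_c0_g1_i1, TRINITY_DN4486_c0_g1_i13 and TRINITY_DN7880_c0_g1_i4 the authors' adjusted p was 0.193, 0.0722 and 0.0857 with unweathered leachate. With weathered leachate it was 0.354, 0.707 and 0.623.

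**Figure D2:**
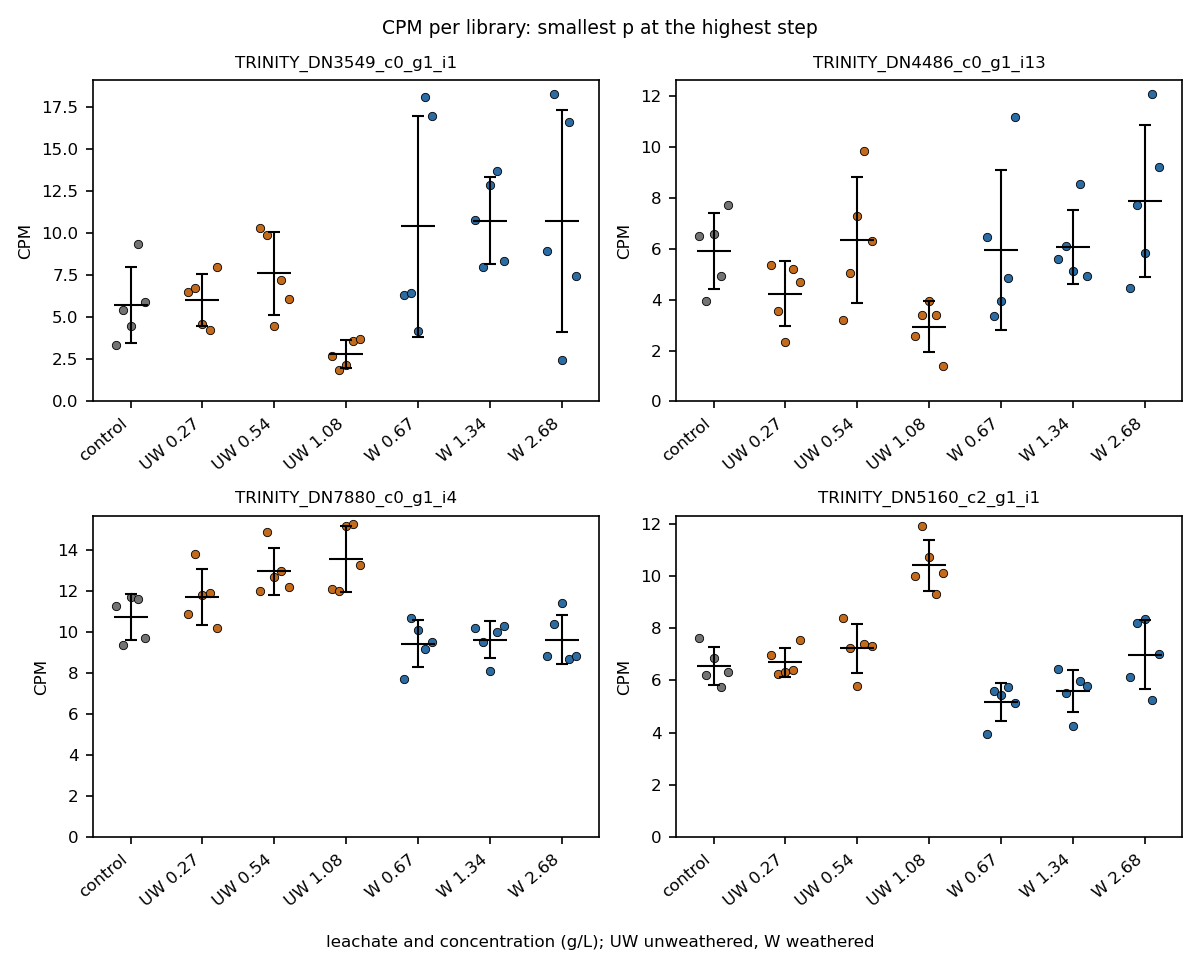
Levels of the 4 named transcripts in all 35 libraries. Each point is 1 library, in CPM, by leachate and concentration in g/L (UW unweathered, W weathered), and horizontal lines with bars are the mean and SD of 5 libraries. At the highest step the groups overlap for TRINITY_DN3549_c0_g1_i1 and not for the other 3 transcripts.

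The direct comparison also bears on transcripts that differed from the control. At unweathered 1.08 g/L 385 transcripts were called against the control (1.4% of those tested) and at weathered 2.68 g/L 119 (0.434%). The 85 that rose with both leachates had a median log2 rise of 1.06 with unweathered and 1.03 with weathered leachate, and their median difference between the leachates was -0.02. Of these 85, 6 (7.06%) were at an unadjusted p under 0.05 in the direct comparison, against 6.76% of all transcripts. The 12 that fell with both had medians of -1.29 and -1.34, and a median difference of 0.07. Both lists were chosen with the same control libraries and for a call in the same direction at both highest concentrations. That choice by itself limits the direct difference, so these values are a description. At the middle step 74 of the 85 were lower in weathered leachate, with a median of -0.13, and at the lowest step 48, with a median of -0.04. Over all transcripts 47.3% and 49.3% were lower at these steps. The 12 had medians of 0.13 and -0.04.

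Most calls were made for unweathered leachate alone, 218 higher and 70 lower than the control. Both leachates are set against the same control libraries here, which by itself puts such transcripts on the same side of the control. At weathered 2.68 g/L 216 of the 218 were also above the control, against 52.6% of all transcripts, with a median log2 change of 0.46 against 0.81 at unweathered 1.08 g/L. All 70 that fell were also below the control there, against 47.3% of all transcripts, with medians of -0.39 and -0.67. In the direct comparison 0 of these 288 transcripts were called by edgeR and 130 (45.1%) were at an unadjusted p under 0.05. The lists were chosen for a change in the same unweathered libraries, which shifts the direct difference by itself, so the 130 are a description. The libraries of the lower concentrations entered that choice only through the shared filter, scaling and spread. In them the 218 had a median log2 difference between weathered and unweathered leachate of -0.16 at the middle step, where 187 were negative. At the lowest step the median was -0.08, and 135 were negative. Over all transcripts 47.3% and 49.3% were negative at these steps. The 70 had medians of 0.10 and 0.12.

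The lower dilution steps repeat the comparison at the same ratio of concentrations in other libraries. Neither gave a call by edgeR. Between weathered 1.34 and unweathered 0.54 g/L the smallest adjusted p was 0.452, with 1309 transcripts (4.77%) at an unadjusted p under 0.05, and limma-voom called 0 and DESeq2 29. Between weathered 0.67 and unweathered 0.27 g/L the smallest adjusted p was 0.101, with 2100 transcripts (7.66%) at an unadjusted p under 0.05, and limma-voom called 0 and DESeq2 130, of which 101 were lower in weathered leachate. At the lowest step edgeR called 4, 2 and 1 transcripts without replicates 2, 3 and 4 of weathered 0.67 g/L.

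The 1854 transcripts at an unadjusted p under 0.05 at the highest step tended to lie on the same side at the other steps. At the middle step 1403 (75.7%) did, against 60.1% of all transcripts, and at the lowest step 1317 (71%), against 59%. At the lowest step 760 of the 935 were again negative, with a median log2 difference of -0.25, while 557 of the 919 were again positive, with a median of 0.10. Across the 6855 most abundant transcripts the correlation of log2 differences was 0.446 between the highest and the middle step and 0.514 between the highest and the lowest. Over all 27420 these values were 0.15 and 0.0461. They are descriptions across transcripts, which are not independent, and the steps share no libraries.

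Averaging the middle and the lowest step gave a comparison of 10 weathered with 10 unweathered libraries. The highest-step libraries did not enter its difference, but they did enter the filter, the scaling and the estimate of the spread. In this comparison 113 transcripts were called (0.412%), 10 higher (0.0365%) and 103 lower (0.376%) in weathered leachate by edgeR. At the highest step, in its separate libraries, 109 of the 113 (96.5%) lay on the same side, against 62.2% of all transcripts. Of the 113, 81 (71.7%) were at an unadjusted p under 0.05 there, against 6.76% of all transcripts, and all 81 on the same side. Most were abundant, with 81 of the 103 and 7 of the 10 in the most abundant quartile of tested transcripts. In that quartile 9.89% were at an unadjusted p under 0.05 at the highest step. The correlation of the 2 sets of log2 differences was 0.581 in that quartile and 0.137 over all transcripts. The 103 had a median log2 difference of -0.36 at the highest step, and 99 of them were negative. The 10 had a median of 0.30, and all were positive. The fit shared 1 estimate of each transcript's spread and 1 scaling across the steps. The number called was 0 with the 4 groups fitted alone or with total count scaling, 458 with DESeq2, and from 36 to 162 when 1 library was left out. The share on the same side was 93.9% or more under every alternative that gave calls.

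**Figure D3:**
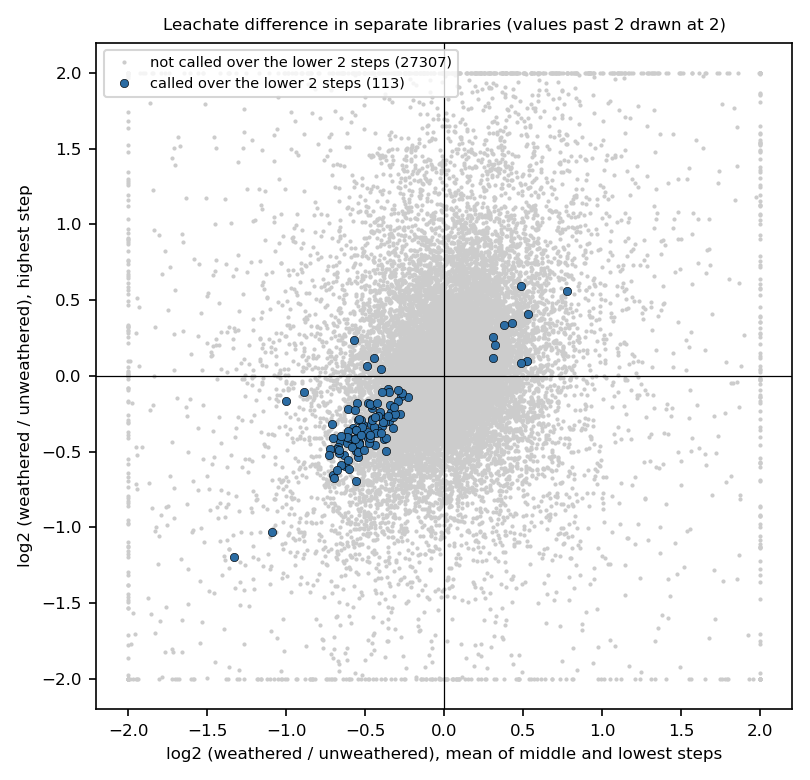
The leachate difference in separate libraries. Each point is 1 of 27420 transcripts, with the log2 difference, weathered over unweathered, averaged over the middle and lowest steps on the x axis and at the highest step on the y axis, and values past 2 in either direction drawn at 2. Blue points are the 113 called over the lower steps, of which 109 have the same sign on both axes.

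The level of these transcripts was followed in each library as the median log2 CPM of the list minus the control mean. For the 103 lower transcripts the 5 libraries of weathered 2.68 g/L were at -0.08, -0.05, -0.16, -0.42 and -0.25, and those of unweathered 1.08 g/L at 0.09, 0.14, 0.17, 0.12 and 0.24. The groups did not overlap. In the same weathered libraries the level of long against short transcripts, relative to the control mean, was -0.02, 0.02, -0.15, -0.20 and -0.24 on the log2 scale. Replicates 1 and 2, which stood apart from replicates 3 to 5 on the second principal component, were thus the highest in both measures. The part of this in the level of the list was not tested. The control libraries lay from -0.07 to 0.06, above 4 of the 5 weathered libraries and below all unweathered ones. At weathered 1.34 g/L the range was -0.48 to -0.31 and at weathered 0.67 g/L -1.27 to -0.26, both lower than at 2.68 g/L by their medians of -0.34, -0.37 and -0.16. The list was chosen on the lower steps, which makes the levels there more extreme than at the highest step.

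For the 10 higher transcripts the weathered 2.68 g/L libraries were at 0.09, 0.01, -0.19, 0.12 and -0.01, and the unweathered 1.08 g/L libraries at -0.27, -0.11, -0.30, -0.12 and -0.43. Weathered replicate 3 lay within the unweathered range and the other 4 above it. The medians of the unweathered groups were -0.25, -0.24 and -0.27 from 0.27 to 1.08 g/L. Those of the weathered groups were 0.20, 0.12 and 0.01 from 0.67 to 2.68 g/L. This list too was chosen on the lower steps, which by itself makes the leachate difference there larger than at the highest step. No trend with concentration is therefore read from these medians. At the highest step the unweathered libraries of this list were below the control range of -0.07 to 0.04, while 2 of the weathered libraries were within it.

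**Figure D4:**
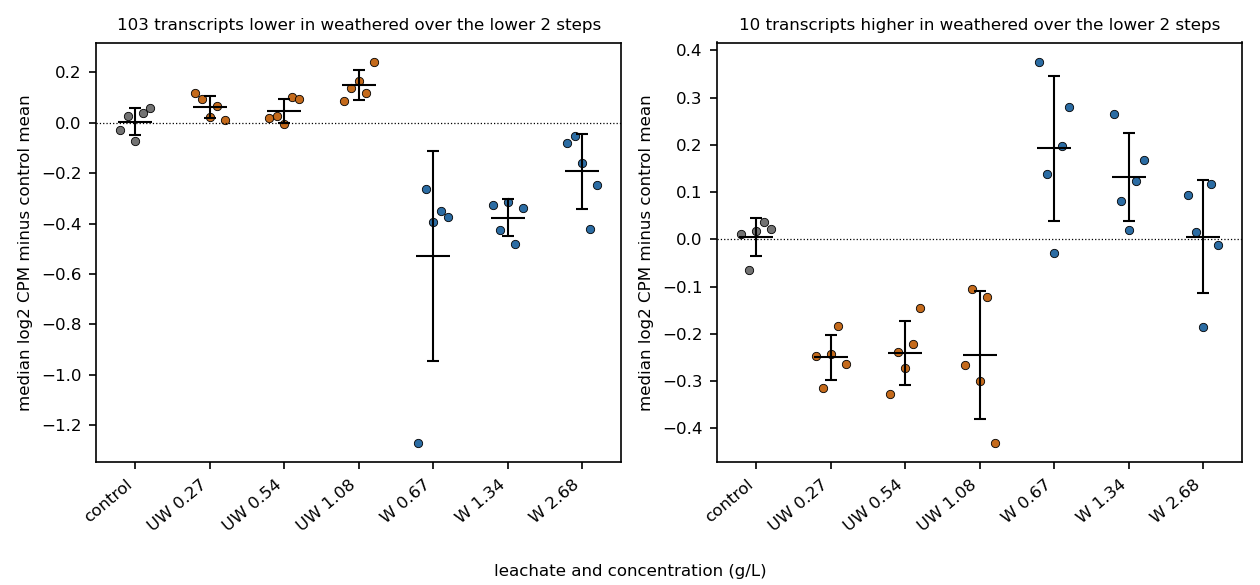
Level of the transcripts called over the middle and lowest steps, in every library. Points are libraries, the y axis is the median log2 CPM of the list minus the control mean, and lines with bars are the mean and SD of 5 libraries. Weathered libraries of the 103-transcript list lie below all unweathered ones at the highest step. They also do so at the middle and lowest steps, where the list was chosen for being lower in weathered leachate. Replicate 1 of weathered 0.67 g/L lies farthest down at -1.27.

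Averaged over all 3 steps, 15 weathered with 15 unweathered libraries, edgeR called 443 transcripts (1.62%), 69 higher (0.252%) and 374 lower (1.36%) in weathered leachate. The highest-step libraries are part of this average. Of the 4 transcripts chosen for a small p in those libraries, edgeR also called TRINITY_DN7880_c0_g1_i4 (adjusted p = 0.00145), TRINITY_DN5160_c2_g1_i1 (adjusted p = 0.00239) and TRINITY_DN3549_c0_g1_i1 (adjusted p = 0.0129). That choice favours such calls. TRINITY_DN4486_c0_g1_i13 was not called (edgeR adjusted p = 0.0942). Over the middle and lowest steps edgeR called only TRINITY_DN7880_c0_g1_i4 of the 4 (adjusted p = 0.0214). The median difference was 1.28-fold among the 69 and 1.35-fold among the 374, and 5 and 12 reached 2-fold. Most were abundant, with 44 of the 69 and 265 of the 374 in the most abundant quartile of tested transcripts. As sums over their Trinity gene, 415 of the 443 were also called on the same side and 0 on the opposite side. For 40 of the 69 and 228 of the 374 the transcript is the only one of its Trinity gene, so that the sum is the transcript itself. Over Trinity genes 764 were called (4.25%), 152 higher (0.845%) and 612 lower (3.4%).

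The excess of lower over higher calls depended in part on the scaling. Upper quartile scaling gave 116 higher and 299 lower transcripts, so that 28.0% were higher in place of 15.6%, and over Trinity genes 369 higher and 508 lower. Total count scaling gave 23 higher and 202 lower transcripts. Without replicate 4 of weathered 2.68 g/L 266 transcripts were called, and without replicate 3 of unweathered 1.08 g/L 293.

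The called transcripts also differed in length. The median length was 3319.5 bases for the 374 lower, 1577 bases for the 69 higher and 1911 bases for all tested transcripts. From the shortest to the longest quartile of transcripts, the number of lower calls was 20, 37, 95 and 222 and that of higher calls 24, 21, 16 and 8. Among transcripts with a mean log2 CPM of at least 1, the median log2 difference in these quartiles was 0.04, 0.01, -0.02 and -0.02 at the highest step. It was 0.03, 0.02, -0.02 and -0.03 at the middle step and 0.10, 0.05, -0.01 and -0.07 at the lowest. The 103 transcripts lower over the middle and lowest steps had a median length of 4084 bases. The level of long against short transcripts in a library, relative to the control mean, lay from -0.24 to 0.02 at weathered 2.68 g/L and from -0.11 to 0.14 at unweathered 1.08 g/L, so the groups overlapped. It lay from -0.28 to 0.01 at weathered 1.34 g/L against -0.14 to 0.03 at unweathered 0.54 g/L, and from -0.57 to 0.03 at weathered 0.67 g/L against -0.10 to 0.06 at unweathered 0.27 g/L. These groups overlapped too, with the lowest library in the weathered group at each step. With the trend over length removed in each library, 384 transcripts were called over the 3 steps (96 higher, 288 lower), 317 of them among the 443. Over the middle and lowest steps 48 were then called, 47 of them among the 113. The part of length in the rest of the difference was not tested.

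Among the transcripts called over the 3 steps with a mean log2 CPM of at least 1, the largest difference on the higher side was again that of TRINITY_DN3549_c0_g1_i1. Its mean was 10.4 CPM (SD 6.58, n = 5), 10.7 CPM (SD 2.57, n = 5) and 10.7 CPM (SD 6.58, n = 5) from weathered 0.67 to 2.68 g/L. In unweathered leachate it was 6.02 CPM (SD 1.55, n = 5), 7.62 CPM (SD 2.48, n = 5) and 2.81 CPM (SD 0.836, n = 5) from 0.27 to 1.08 g/L. The log2 difference over the 3 steps was 1.07 (SE 0.23, edgeR adjusted p = 0.0129), and limma did not call it from voom weights (adjusted p = 0.0551) or from TPM (adjusted p = 0.0711).

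TRINITY_DN55513_c0_g1_i2, of 4941 bases, was at 4.39, 2.24, 1.51, 2.40 and 2.16 CPM in the libraries of weathered 2.68 g/L. It was at 1.93, 1.01, 0.682, 1.37 and 0.557 CPM in those of unweathered 1.08 g/L. Weathered replicate 3 lay within the unweathered range. Over these 10 libraries alone the transcript's mean log2 CPM was 0.718, below the minimum of 1 that was set for naming. The log2 difference was 1.19 (SE 0.33, edgeR adjusted p = 0.521) at the highest step and 0.79 (SE 0.19, edgeR adjusted p = 0.0214) over the 3 steps, a call lost with total count scaling (edgeR adjusted p = 0.051) and in limma on TPM (adjusted p = 0.0888). Both leachates were below the control mean of 4.82 CPM (SD 1.84, n = 5), by -2.11 on the log2 scale (SE 0.33, edgeR adjusted p = 0.000386) at unweathered 1.08 g/L and by -0.92 (SE 0.32, edgeR adjusted p = 0.320) at weathered 2.68 g/L. The authors' deposited table does not list TRINITY_DN55513_c0_g1_i2.

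On the lower side, TRINITY_DN1607_c3_g3_i3, of 5406 bases, had the largest difference over the 3 steps. It was at 11.9, 16.8, 31.5, 43.2 and 7.73 CPM in the libraries of weathered 2.68 g/L and at 44.2, 62.0, 12.5, 17.5 and 89.7 CPM in those of unweathered 1.08 g/L. These groups overlapped widely, and the log2 difference at the highest step was -1.02 (SE 0.63, edgeR adjusted p = 0.834). Over the 3 steps it was -1.56 (SE 0.37, edgeR adjusted p = 0.0218), and limma-voom, at an adjusted p of 0.0548, did not call it. The control libraries of TRINITY_DN1607_c3_g3_i3 ran from 11.9 to 75.4 CPM.

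TRINITY_DN42648_c0_g1_i8, of 731 bases, was at 4.67, 5.58, 2.55, 2.67 and 3.36 CPM in the libraries of weathered 2.68 g/L. It was at 6.29, 6.02, 11.0, 9.01 and 8.25 CPM in those of unweathered 1.08 g/L, all above the weathered libraries. The log2 differences were -1.11, -0.97 and -1.05 at the highest, middle and lowest step. Their average of -1.04 (SE 0.25) passed the test (edgeR adjusted p = 0.0267), whereas none of the 3 did alone. It no longer passed with total count scaling (edgeR adjusted p = 0.0529), nor without replicate 2 or 4 of unweathered 0.27 g/L, replicate 3 of unweathered 1.08 g/L or replicate 4 of weathered 2.68 g/L (edgeR adjusted p = 0.0524, 0.0525, 0.0501 and 0.0526). TRINITY_DN42648_c0_g1_i8 is 1 of 2 transcripts of its Trinity gene, which as a sum was at 31.9 CPM (SD 12.4, n = 5) in weathered and 67.8 CPM (SD 18.3, n = 5) in unweathered leachate at the highest step.

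**Figure D5:**
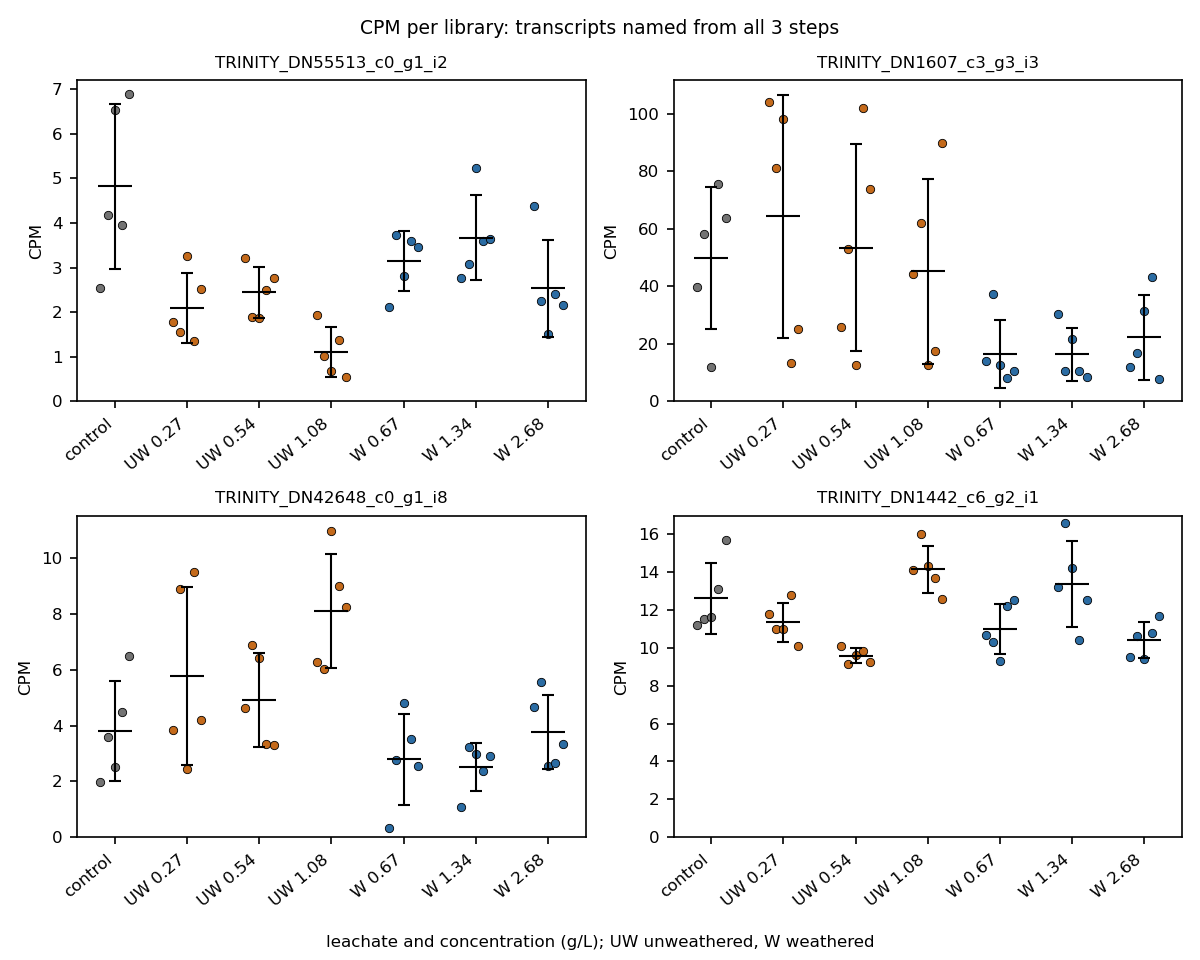
Levels of 4 further named transcripts in all 35 libraries. Each point is 1 library, in CPM, by leachate and concentration in g/L (UW unweathered, W weathered), and lines with bars are the mean and SD of 5 libraries. TRINITY_DN55513_c0_g1_i2 has higher, and TRINITY_DN1607_c3_g3_i3 and TRINITY_DN42648_c0_g1_i8 have lower, weathered than unweathered means at every step, while TRINITY_DN1442_c6_g2_i1 changes side between the middle and the highest step.

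Whether the leachate difference itself changed with dilution was tested as well. Between the highest and the middle step it did so for 1 transcript (0.00365%) by edgeR, 20 by DESeq2 (14 higher, 6 lower) and 0 by limma-voom. Between the highest and the lowest step it did so for 0 by edgeR, where 858 transcripts (3.13%) were at an unadjusted p under 0.05, DESeq2 called 11 and limma-voom 0. The 1 transcript called by edgeR was TRINITY_DN1442_c6_g2_i1, of 1507 bases. At the highest step it was at 9.51, 10.6, 9.43, 10.8 and 11.7 CPM in weathered and 14.1, 16.0, 14.3, 13.7 and 12.6 CPM in unweathered leachate. All weathered libraries were below all unweathered ones. At the middle step it was at 13.2, 16.6, 14.2, 10.4 and 12.5 CPM in weathered and 10.1, 9.12, 9.61, 9.85 and 9.24 CPM in unweathered leachate, with all weathered libraries above all unweathered ones. The change of the difference was -0.93 on the log2 scale (SE 0.15, edgeR adjusted p = 0.0359), from 0.48 at the middle to -0.44 at the highest step. Leaving out 1 library ended this call in 17 of 20 fits, and it was not made with total count scaling, with the 4 groups fitted alone or by limma-voom.

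Isoform use was tested in the 5857 Trinity genes with at least 2 tested transcripts. edgeR's test of unequal differences among the transcripts of a Trinity gene called 10 (0.171%), and limma's called 0. In 8 of the 10 the leading transcript had a count of 0 in every library of a group, and as sums over all transcripts none of the 10 Trinity genes differed between the leachates, with a smallest edgeR adjusted p of 0.582. The edgeR count was 2 with the compared groups alone. It ranged from 4 to 13 when 1 library was left out, with 4 and 5 without unweathered replicates 1 and 4, and 5, 6 and 5 without weathered replicates 1, 3 and 4. The same edgeR test also made calls in every set of simulated counts in which nothing differed, so no difference in isoform use is read from these 10.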

How the data were processed

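The estimated counts and TPM values (a library share scaled by transcript length) per transcript and library were deposited by the authors. Per the submitters' processing notes, the tools were Trimmomatic 0.38, kallisto and DESeq2. The version of kallisto and its assembly: not given in the sources used here. The authors also deposited tables against the control with log2 fold changes and p-values for 13326 transcripts, used only where named.

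Estimated counts were rounded, filtered with filterByExpr (minimum count 10, minimum total 15; 99.86% to 99.95% of counts kept) and scaled with TMM. edgeR 4.0.16 (R 4.3.3) fitted a mean per group to all 35 libraries. Its quasi-likelihood test was used with Benjamini-Hochberg adjustment over all features tested, and an adjusted p under 0.05 was a call. limma 3.58.1 and DESeq2 1.42.0 were alternatives, and log2(TPM + 0.5) was fitted with limma as another. The scripts were tested on simulated counts. Standard errors are the log2 difference over the square root of F. The counting depth limits scarce transcripts most.

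The comparison, lists and rules were chosen with earlier results of these data known. The averages over steps, the length trend and the rule for the transcripts named from them (adjusted p under 0.05, mean log2 CPM of at least 1, largest difference) were added after seeing the data. For the direct comparison, the rule was adjusted p under 0.05 and groups that do not overlap, and, since none passed, the smallest unadjusted p at a mean log2 CPM of at least 1. No sequence or gene name was used.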

Additional observations from a re-analysis of the deposited data

Results flagged for a closer look

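In 84 groups of 5 libraries, 3 held 1 library far from the other 4 by Dixon's criterion, which chance alone meets in about 1 of 20 groups. For the 103 transcripts lower in weathered leachate over the lower steps, replicate 1 of weathered 0.67 g/L was at -1.27 (median log2 CPM minus the control mean), where the next library of its group was at -0.39. Its level of long against short transcripts, relative to the control mean, was -0.57, the lowest of the 35 libraries, and the 103 transcripts had a median length of 4084 bases. Without that replicate 156 transcripts were called over the middle and lowest steps in place of 113. For the 10 transcripts on the higher side, control replicate 2 was at -0.0654. TRINITY_DN1607_c3_g3_i3 was at 37.4 CPM in replicate 2 of weathered 0.67 g/L, where the other 4 libraries ran from 8.19 to 14.2 CPM.

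The leachate difference of TRINITY_DN1442_c6_g2_i1 changed between the middle and the highest step by -0.93 on the log2 scale (edgeR adjusted p = 0.0359 for the change itself), with opposite signs at the 2 steps.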

How the results depend on the processing

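Replicate numbers did not pair the libraries: same-numbered libraries of the highest step had correlations of their deviations of 0.0492, -0.0187, -0.0114, 0.0375 and -0.181. With the replicate number as a block the highest step had 0 calls for transcripts and 0 for Trinity genes, 394 transcripts were called over the 3 steps and 92 over the lower steps, isoform use had 3 calls and the change from middle to highest step 0. DESeq2 called 32 transcripts and 22 Trinity genes at the highest step, 29 at the middle, 130 at the lowest, 20 and 11 for the change from the middle and the lowest step, 977 over 3 steps and 458 over the lower steps. Fitting the compared groups alone gave 1 at the highest step, 2 for isoform use, 0 for the change from the middle step and 0 over the lower steps, and limma-voom gave 0 for isoform use and 0 for that change. Total count scaling gave 225 over 3 steps (416 Trinity genes), 0 over the lower steps and 0 for the change from the middle step. Among the 13326 transcripts that the authors tabulated, 772 were called over 3 steps and 246 over the lower steps, from log2(TPM + 0.5) with limma 283 and 15. Without a filter 63, and with the length trend removed 48, were called over the lower steps. The cause was not tested. Leaving out 1 library at a time, the counts ran from 0 to 2 at the highest step (Trinity genes 0 to 2, with 1, 1 and 1 without unweathered 1.08 g/L replicates 1, 3 and 4 and 2 without weathered 2.68 g/L replicate 3), 0 to 4 at the lowest, 0 to 1 for the change from the middle step, 4 to 13 for isoform use, 266 to 534 over 3 steps and 554 to 888 Trinity genes. Over the lower steps they ran from 36 to 162, with 42, 45, 71 and 68 without unweathered 0.27 g/L replicates 1, 2, 4 and 5, with 59, 49 and 61 without unweathered 0.54 g/L replicates 2, 4 and 5, and with 64, 46, 36 and 71 without weathered 1.34 g/L replicates 1, 2, 4 and 5. The mean difference in transcripts detected ran from 297 to 700, past the test only without weathered 2.68 g/L replicate 5 (exact permutation p = 0.0476). That of the TMM factor ran from -0.0343 to 0.0174 and changed sign in 3 of 10. The differences of the 4 transcripts named at the highest step kept their sign in all alternatives run, and DESeq2 called all 4 (adjusted p = 0.00427, 0.0243, 0.0058 and 0.00589).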
